A study of Mus musculus with 9 samples.

Results

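The chemokines and chemokine receptors of medullary thymic epithelial cells are described here across C2TA knockdown, C2TA knockout and wild type cells. Members were taken by name: a probe set was included where its gene symbol in the deposited annotation began with Ccl, Cxcl, Xcl, Cx3cl, Ccr, Cxcr, Xcr, Cx3cr or Ccrl followed by a digit. This gave 62 of the 35552 probe sets on the array and, with the brightest probe set kept for each gene, 52 of 19593 genes. The rule itself uses names only. The cells carried CD80, a surface protein of the mature medullary epithelium, and came from the thymus of female Balb/c mice aged 4 to 6 weeks. The 9 Affymetrix arrays fell into a C2TA knockdown group (arrays 4 to 6), a C2TA knockout group (arrays 7 to 9) and a C2TA wild type group (arrays 1 to 3). C2TA, encoded by Ciita, switches on the MHC class II genes, and the study asked what these cells contribute by themselves to the tolerance of CD4 T cells. Each group is labelled as 3 biological replicates with no number of mice given, so the p-values rest on the variation among these 9 samples. The labels also do not say how C2TA was silenced or which cells of the knockout lack it. In the published work on these mice the silencing construct is carried by a transgene under control of the Aire locus, which is background here and was not checked. Published work also describes few mature CD4 T cells in mice without C2TA. This is background too, and whether it holds for the knockout here was not checked.

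Chemokines are small secreted proteins that attract cells carrying the matching G protein-coupled receptor. In the thymus they guide developing T cells: CCL25 and CXCL12 attract immature thymocytes to the cortex, and the CCR7 ligands CCL19 and CCL21 and the CCR4 ligands CCL17 and CCL22 draw positively selected thymocytes toward the medulla. Medullary epithelial cells also produce XCL1, which attracts dendritic cells that carry XCR1, and inflammatory chemokines such as CXCL9, CXCL10 and CCL5, which are better known from infected tissue.

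Ciita itself had log2 signals of 5.44, 4.94 and 5.50 on the knockdown arrays, 5.96, 6.16 and 6.11 on the knockout arrays and 6.37, 6.55 and 6.28 on the wild type arrays. Where the deletion lies relative to these probes is not known here, so the knockout value is no check of the label. H2-Aa, an MHC class II chain that needs C2TA, averaged 9.18 ± 0.12 in the knockdown, 6.12 ± 0.22 in the knockout and 10.62 ± 0.45 in the wild type (log2, SD, n = 3 each). The epithelial markers Epcam, Krt8 and Aire had mean signals of 9.01, 10.16 and 10.34, beside a median of 4.52 over all genes, a description of these probe sets that no contrast between groups tests. The array medians lay between 4.48 and 4.54. Wild type 1 had a compressed distribution with an interquartile range of 2.2, and knockout 7 followed with 2.37, against 2.53 to 2.8 on the other arrays. Wild type 1 gave the lowest of the 9 signals for 14 of the 52 members, and 8 of these were among the 21 members with a mean of at least 5. Counts that lead a comparison are therefore also given without 1 or both of these arrays.

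The deposited signals are log2 values made with RMA, and the brightness of a probe set depends on its probes, so values of different genes are not compared. Of the 52 members, 10 had a mean of at least 7, 11 lay from 5 to below 7 and 31 lay under 5, a range that held 59.8% of all genes. A mean of at least 5 was found for 9 of 14 homeostatic ligands, 8 of 19 inflammatory ligands, 4 of 15 signalling receptors (Ccr4, Ccr7, Ccr9 and Cxcr4) and 0 of 4 other members, which describes the probe sets and does not order the genes by abundance. The probe sets of Cxcl10, Ccl27a, Ccl5, Ccl19, Ccl21b, Cxcl9, Cxcl11, Cxcl2 and Ccr4 were among the brightest. Several genes rest on uncertain probe sets. The 4 probe sets of Ccl21 held identical values and cannot separate the nearly identical copies of that gene, and the name Ccl21b used here comes from the accession. The 3 probe sets of Ccl27a differed by up to 1.35, while the 5 of Ccl19 differed by at most 0.13. Ccl25, the CCR9 ligand, was not analysed here.

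**Figure D1:**
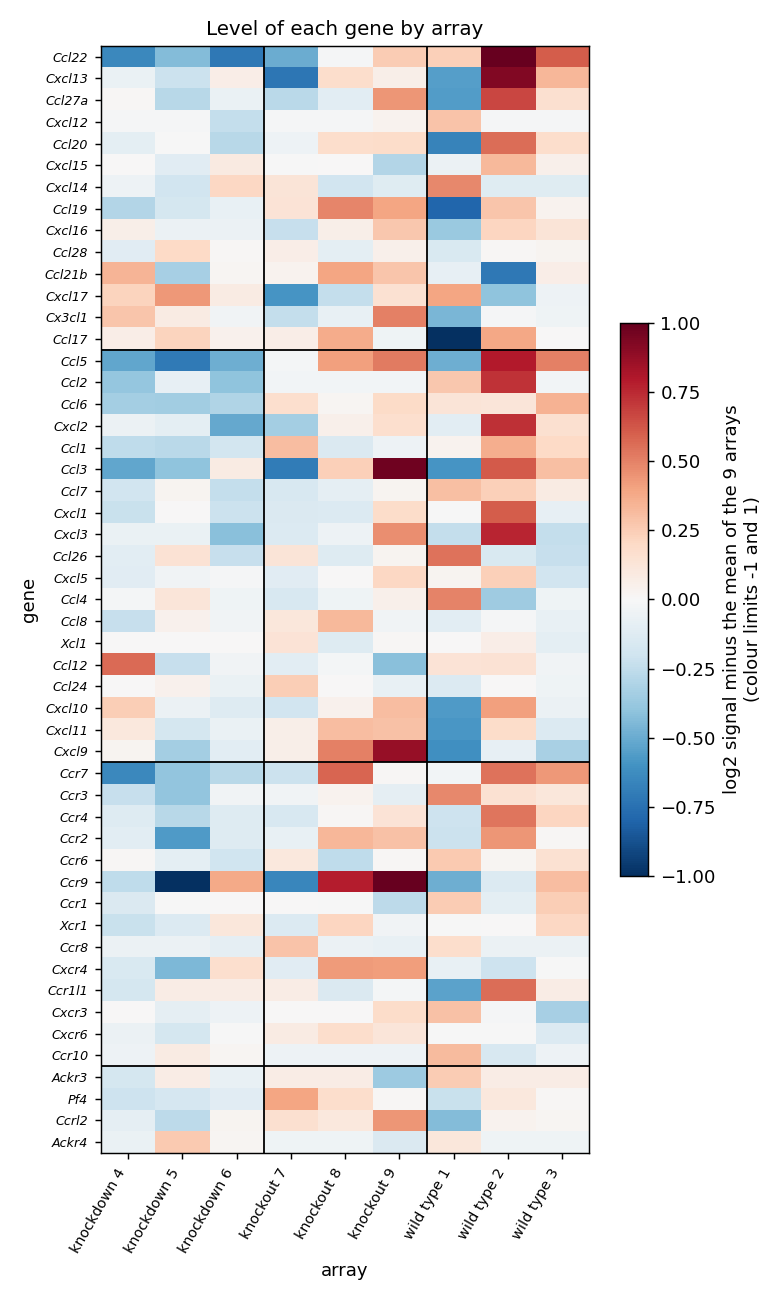
Log2 signal of the chemokine and receptor genes described (rows) on each array (columns) minus its mean over the 9 arrays, with colours ending at -1 and 1. Rows are grouped as homeostatic ligands, inflammatory ligands, signalling receptors and other members, and within each group they run from the most negative to the most positive difference between knockdown and wild type. Ccl22 and Ccl5 are blue on the knockdown arrays, and wild type 1 is blue for many of the brighter ligands that are red on wild type 2.

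The first comparison asked how the chemokine system of the knockdown cells compares with that of wild type cells. Lower means were common in the knockdown, and Ccl22 had the largest difference, a 2.42-fold lower level. Ccl5, Ccr7, Ccl2 and Ccl6 followed, with levels between 1.44-fold and 1.79-fold lower. No member passed the test: 0 of 52 had a Benjamini-Hochberg adjusted p under 0.05 in limma, where 0.0664% of all genes did, so each of these values is a difference between means and not a called change. At an unadjusted p under 0.05, 9 members were lower and 0 were higher, where 2.37% of all genes were lower and 2.86% higher. The knockdown mean lay below the wild type mean for 39 of 52 members, against 47.6% of all genes. In 9 members, namely Ccl1, Ccl2, Ccl22, Ccl5, Ccl6, Ccl7, Ccr3, Ccr6 and Ccr7, all 3 knockdown arrays lay below all 3 wild type arrays, an arrangement found for 3.46% of all genes. In 0 members did they lie above them, against 4.8% of all genes. The median difference of the members was -0.11 on the log2 scale and that of all genes 0.01. Without wild type 1, a lower mean was found for 38 members (48.8% of all genes) and an unadjusted p under 0.05 with a lower mean for 16 (5.31% of all genes). All knockdown arrays then lay below all wild type arrays for 20 members (13.2% of all genes) and above them for 1 (11.3% of all genes). For 44 of 52 members (84.6%) the 95% interval of the difference lay within 2-fold either way, against 96.4% of all genes.

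**Figure D2:**
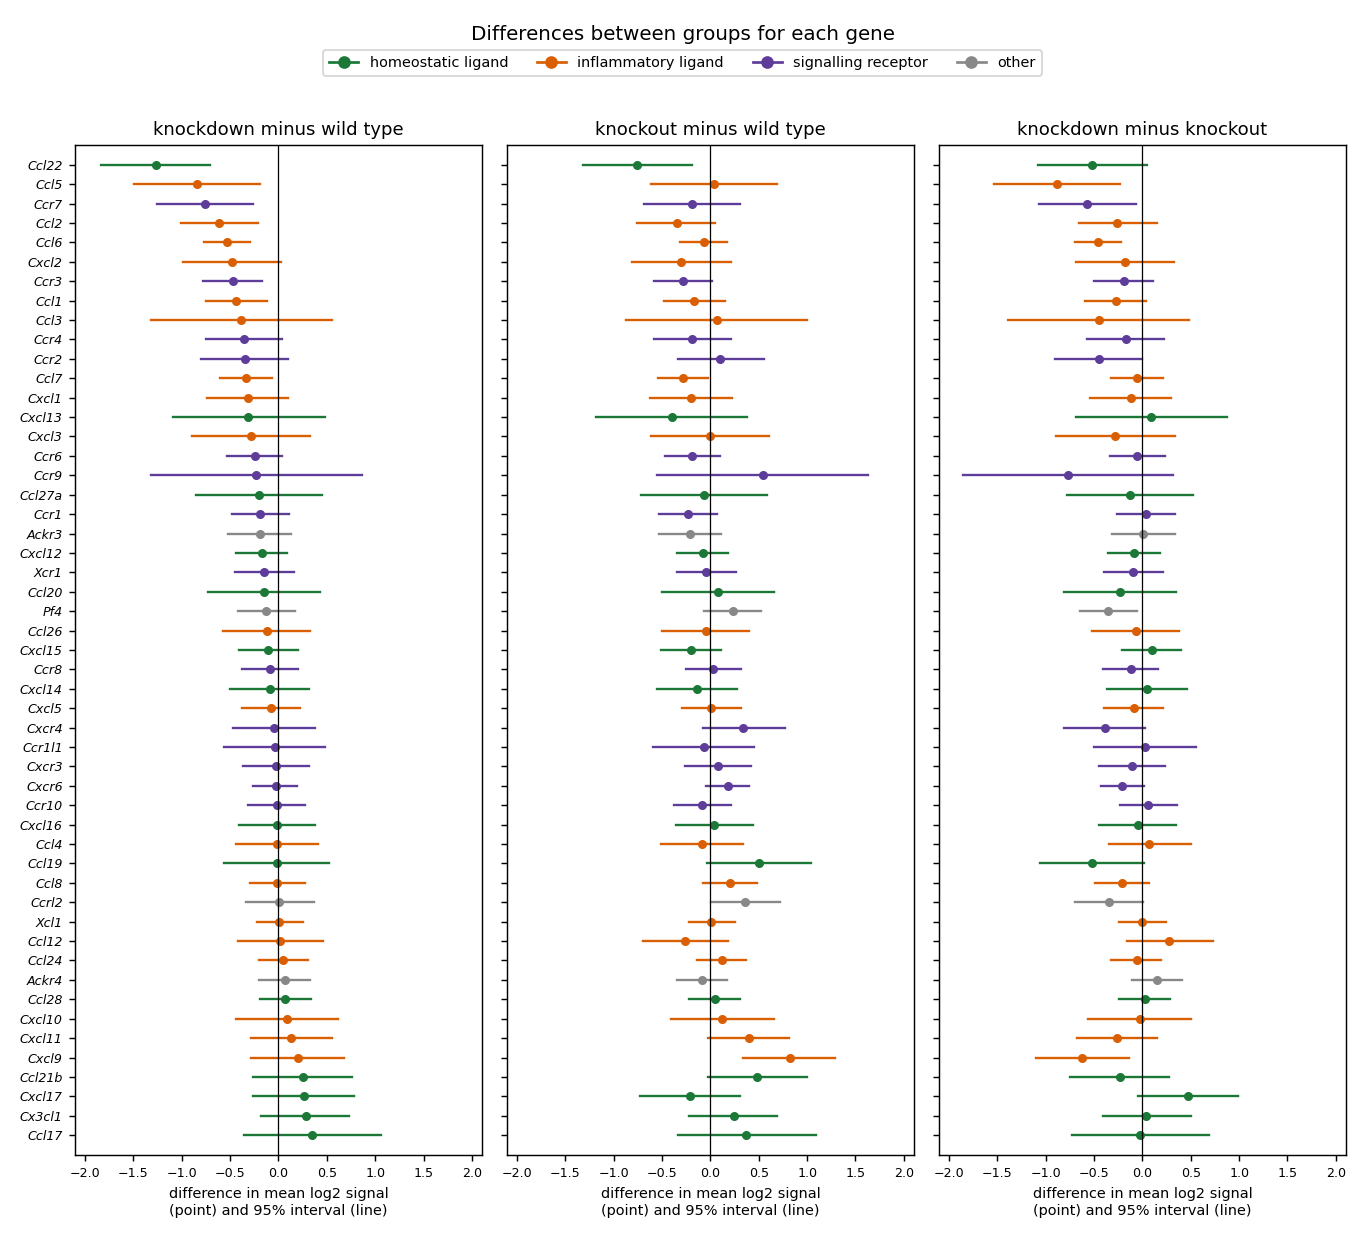
Difference in mean log2 signal (point) with its 95% interval from limma (line) for the genes described in the 3 comparisons, ordered by the difference between knockdown and wild type and coloured by role. In the left panel most points lie left of 0, with Ccl22 at -1.27 at the top. In the middle panel points lie on both sides of 0 and Cxcl9 lies furthest right at 0.82.

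CCR4 binds the ligands CCL22 and CCL17, and Ccl22 was the member furthest below wild type in the knockdown. Ccl22, a ligand made by medullary epithelium and dendritic cells, had log2 signals of 6.20, 6.41 and 6.13 on the knockdown arrays, 6.35, 6.83 and 7.10 on the knockout arrays and 7.08, 8.03 and 7.45 on the wild type arrays. All knockdown arrays lay below all wild type arrays, and the knockout arrays overlapped both groups, with knockout 7 below knockdown 5 and knockout 9 just above wild type 1. The difference between knockdown and wild type was -1.27 (SE 0.25) with an adjusted p of 0.243 in limma after Benjamini-Hochberg adjustment over all genes. That between knockout and wild type was -0.76 (SE 0.25, a 1.69-fold lower level, limma adjusted p = 1.0), and that between knockdown and knockout was -0.52 (SE 0.25, limma adjusted p = 1.0). The call for Ccl22 in the knockdown depended on the setting: limma's adjusted p was 0.0031 with array weights, 0.00885 after repeated quantile normalization and 0.0359 without wild type 1 and knockout 7, and over all alternatives it lay between 0.0031 and 0.916. Ccl17, the other CCR4 ligand, had 5.34, 5.50 and 5.32 in the knockdown, 5.34, 5.65 and 5.23 in the knockout and 4.16, 5.66 and 5.28 in the wild type. Its groups overlapped, and its difference of 0.35 (SE 0.32) between knockdown and wild type was -0.08 without wild type 1. Ccr4 had 7.33, 7.18 and 7.33 in the knockdown, 7.30, 7.47 and 7.59 in the knockout and 7.25, 7.99 and 7.67 in the wild type, and these groups overlapped as well.

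The promoter windows of both CCR4 ligands are shown because Ccl22 and Ccl17 are neighbours, with Cx3cl1 between them in the RefSeq gene order, and had unlike differences from wild type in the knockdown, -1.27 (SE 0.25) and 0.35 (SE 0.32, or -0.08 without wild type 1), a contrast that was not tested. Each window runs from 250 bases before to 50 bases after the RefSeq start of the gene (build GRCm38.p6), is written 5′ to 3′ on the gene's strand, and has motif matches in capitals. The Ccl22 window lies at chr8:94745434-94745733 on the plus strand and the Ccl17 window at chr8:94810203-94810502 on the plus strand.
Ccl22: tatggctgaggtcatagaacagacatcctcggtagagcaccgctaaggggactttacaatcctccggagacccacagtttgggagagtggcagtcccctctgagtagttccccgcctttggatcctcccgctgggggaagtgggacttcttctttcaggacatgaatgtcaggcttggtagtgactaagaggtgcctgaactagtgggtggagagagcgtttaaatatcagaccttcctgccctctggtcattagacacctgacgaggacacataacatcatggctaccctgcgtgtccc
Ccl17: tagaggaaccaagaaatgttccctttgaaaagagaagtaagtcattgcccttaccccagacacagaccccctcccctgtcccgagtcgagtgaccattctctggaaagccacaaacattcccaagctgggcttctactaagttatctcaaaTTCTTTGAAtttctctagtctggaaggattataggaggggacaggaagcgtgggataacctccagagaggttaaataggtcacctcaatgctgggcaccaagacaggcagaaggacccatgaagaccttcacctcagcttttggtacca
Motifs, 4 in all, whose forms were chosen after the windows had been seen, were searched on both strands: GGGNNTTCC, a kappa B form, an interferon-stimulated element form made of GAAA, NN and GAAA, TTCNNNGAA, an interferon-gamma-activated form, and CCAAT, the Y box core. The Ccl22 window held no match to these letters, and the Ccl17 window held TTCNNNGAA at position -99 from the start. Of all 32851 windows in the table, 5.82% held GGGNNTTCC, 3.44% the interferon-stimulated element form, 8.3% TTCNNNGAA and 37.4% CCAAT. Among the 44 windows of the 39 members in the table, these shares were 15.9%, 6.82%, 9.09% and 27.3%. A match describes the letters only and shows no binding.

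CCR7, the receptor that brings mature thymocytes into the medulla and dendritic cells to lymph nodes, had lower signals in the knockdown as well. Ccr7 lay at 5.73, 5.98 and 6.10 on the knockdown arrays, 6.16, 6.96 and 6.39 on the knockout arrays and 6.35, 6.92 and 6.81 on the wild type arrays. Every knockdown array lay below every array of the other groups, which overlapped each other. The knockdown minus wild type difference was -0.76 (SE 0.22, a 1.69-fold lower level, limma adjusted p = 0.555), and with array weights it was -0.88 with a limma adjusted p of 0.0305, and over all alternatives it lay between 0.0305 and 1.0. Its ligands did not share this arrangement. Ccl19 had 8.26, 8.38 and 8.48 in the knockdown, 8.69, 9.04 and 8.95 in the knockout and 7.76, 8.83 and 8.59 in the wild type. All knockout arrays lay above all knockdown arrays, with a knockdown minus knockout difference of -0.52 (SE 0.24), while the wild type arrays overlapped both. The Ccl21 probe sets gave 8.73, 8.06 and 8.41 in the knockdown, 8.43, 8.79 and 8.67 in the knockout and 8.31, 7.68 and 8.46 in the wild type, with overlap between all groups. The differences of Ccl21b from wild type were 0.25 (SE 0.23) in the knockdown and 0.48 (SE 0.23) in the knockout, and that of Ccl19 in the knockout was 0.50 (SE 0.24, limma adjusted p = 1.0). Without wild type 1 the difference of Ccl19 was 0.18. Without wild type 2 the values of Ccl21b were 0.01 in the knockdown and 0.25 in the knockout.

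CCL5 attracts T cells and monocytes, and its gene was the second furthest below wild type in the knockdown. Ccl5 had 8.37, 8.18 and 8.40 in the knockdown, 8.87, 9.30 and 9.41 in the knockout and 8.40, 9.68 and 9.39 in the wild type. Knockdown 6 and wild type 1 were equal at this rounding, while every knockout array lay above every knockdown array. The difference was -0.84 (SE 0.29) between knockdown and wild type with a limma adjusted p of 0.715, and -0.88 (SE 0.29) between knockdown and knockout with a limma adjusted p of 0.680. Without wild type 1 the knockdown minus wild type difference of Ccl5 was -1.22 (SE 0.17) with a limma adjusted p of 0.038, and it was also -1.22 without wild type 1 and knockout 7 (limma adjusted p = 0.0149). With array weights it was -1.09 (limma adjusted p = 0.00456), and over all alternatives the adjusted p lay between 0.00456 and 1.0. Against the knockout, Ccl5 passed with array weights at -0.96 (limma adjusted p = 0.0152) and without wild type 1 and knockout 7 at -1.04 (limma adjusted p = 0.0379), the range over alternatives being 0.0152 to 1.0. The related ligands Ccl3 and Ccl4 overlapped between groups: Ccl3 had knockdown minus wild type and knockout minus wild type differences of -0.39 and 0.07 (SE 0.42 each), and Ccl4 had -0.02 and -0.09 (SE 0.19 each).

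Ccl6, a mouse chemokine of myeloid cells that acts through CCR1, separated the knockdown from both other groups. It lay at 4.21, 4.20 and 4.25 in the knockdown, 4.72, 4.57 and 4.74 in the knockout and 4.68, 4.67 and 4.90 in the wild type, so every knockdown array lay below all 6 others. The difference was -0.53 (SE 0.11) between knockdown and wild type (limma adjusted p = 0.247) and -0.46 (SE 0.11) between knockdown and knockout (limma adjusted p = 0.326). With array weights both passed in limma, at adjusted p = 0.0093 and 0.0495, the ranges over alternatives being 0.0093 to 0.926 and 0.0495 to 1.0. In the knockout its difference from wild type was -0.07 (SE 0.11).

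**Figure D3:**
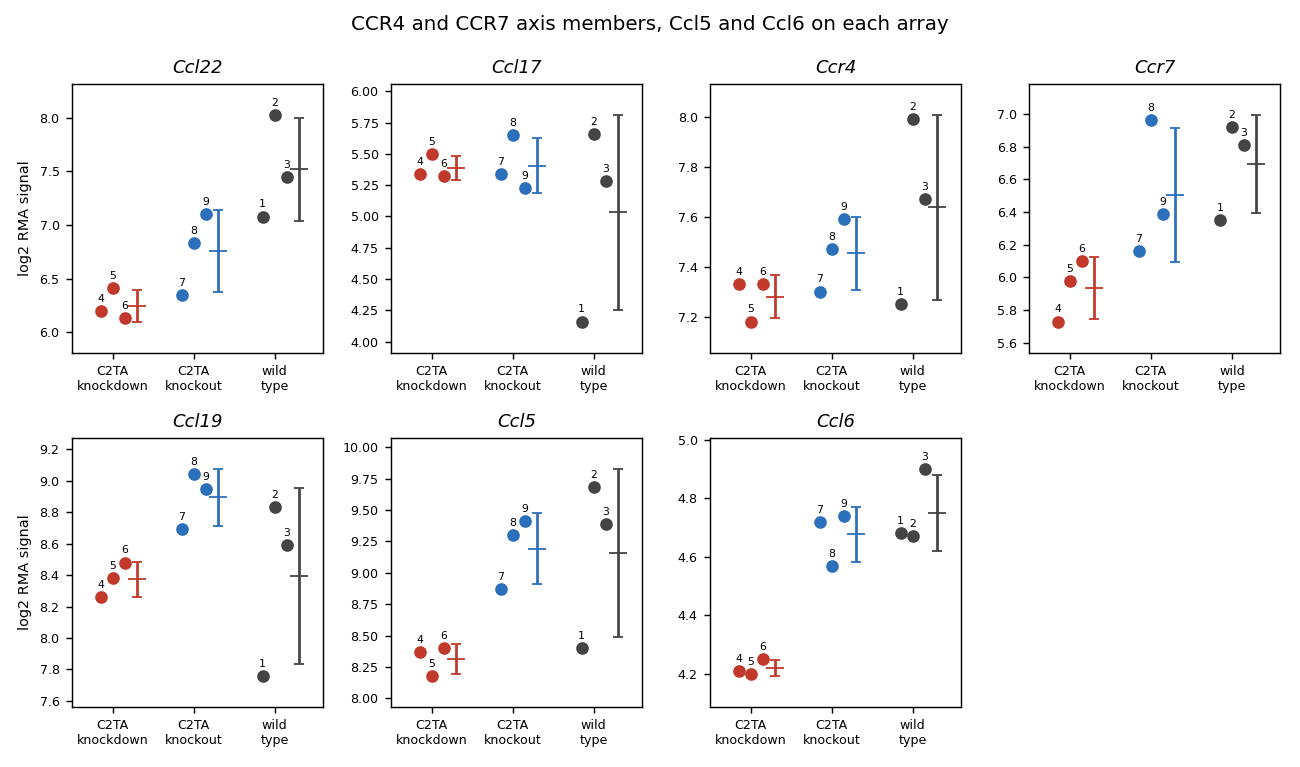
Log2 RMA signal of Ccl22, Ccl17, Ccr4, Ccr7, Ccl19, Ccl5 and Ccl6 on each array, with points numbered by array and the group mean ± SD beside them (n = 3). The knockdown points of Ccl22, Ccr7 and Ccl6 lie below all wild type points, and wild type 1 lies far below the other wild type arrays for Ccl17, Ccl19 and Ccl5.

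Ligands of CCR2, CCR3 and CCR8 had dim probe sets. Ccl2, the main monocyte attractant through CCR2, had 4.24, 4.55 and 4.23 in the knockdown, 4.60 on each knockout array and 4.90, 5.35 and 4.60 in the wild type. Equal values on several arrays come from the median polish of RMA, occur in all 3 arrays of a group for 3 members, and understate the spread. The difference was -0.61 (SE 0.18, limma adjusted p = 0.555) in the knockdown and -0.35 (SE 0.18, limma adjusted p = 1.0) in the knockout. Ccl7, another CCR2 ligand, had 3.97, 4.19 and 3.92 in the knockdown, 4.00, 4.07 and 4.19 in the knockout and 4.46, 4.40 and 4.24 in the wild type. Both C2TA groups lay below wild type without overlap, by -0.34 and -0.28 (SE 0.12 each). Ccl12, the third CCR2 ligand, overlapped in all comparisons, and its difference between knockdown and knockout was 0.28 (SE 0.20). Ccl1, the ligand of CCR8, averaged 4.63 ± 0.05 in the knockdown, 4.91 ± 0.24 in the knockout and 5.07 ± 0.16 in the wild type (SD, n = 3 each). Its knockdown minus wild type difference of -0.44 (SE 0.14) had a limma adjusted p of 0.632, and of 0.04 with array weights, the alternatives giving 0.04 to 1.0. Ccl8, which also acts on mouse CCR8, overlapped between all groups. So did the eosinophil attractants Ccl24, with differences from wild type of 0.05 in the knockdown and 0.12 in the knockout (SE 0.11 each), and Ccl26, with -0.12 and -0.05 (SE 0.20 each).

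Among the receptors of these ligands, Ccr3, the eosinophil receptor, had 2.40, 2.23 and 2.59 in the knockdown, 2.59, 2.66 and 2.54 in the knockout and 3.11, 2.78 and 2.74 in the wild type. Both C2TA groups lay below wild type, by -0.47 in the knockdown (limma adjusted p = 0.538) and -0.28 in the knockout (limma adjusted p = 1.0, SE 0.14 each), at dim signals. Ccr2 had a knockdown minus knockout difference of -0.45 (SE 0.20, limma adjusted p = 0.984), with 3.37, 2.91 and 3.35 in the knockdown, 3.40, 3.81 and 3.77 in the knockout and 3.26, 3.92 and 3.49 in the wild type. Ccr1 averaged 1.96 ± 0.09 in the knockdown, 1.92 ± 0.15 in the knockout and 2.14 ± 0.20 in the wild type, and its knockout minus wild type difference was -0.23 (SE 0.13). Ccr8 averaged 3.06 ± 0.02 in the knockdown, 3.18 ± 0.20 in the knockout and 3.15 ± 0.14 in the wild type. For all 15 signalling receptors the knockdown mean lay below the wild type mean, with a median difference of -0.19, while 3 of them, Ccr3, Ccr6 and Ccr7, did so without overlap, where 47.6% of all genes had a lower mean and 3.46% lay below without overlap. A pair of receptors annotated under older symbols fell outside the naming rule: Cxcr5 (Blr1) had 3.30, 3.02 and 3.33 in the knockdown, 3.33, 3.33 and 3.22 in the knockout and 3.41, 3.81 and 3.36 in the wild type. Cxcr1 (Il8ra) had 3.77, 3.98 and 3.62 in the knockdown, 4.12, 3.42 and 3.36 in the knockout and 3.59, 3.56 and 3.61 in the wild type. The knockdown arrays lay below wild type without overlap for Cxcr5 (-0.31, SE 0.14, limma adjusted p = 0.966) and above it for Cxcr1 (0.20, SE 0.19, limma adjusted p = 0.983). In the knockout 8 of the 15 lay below wild type, with a median of -0.05. Since 11 of the 15 had means under 5, most of these differences concern probe sets near the lower end of the signal range.

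The CXCR2 ligands, which attract neutrophils, had lower means in the knockdown with overlapping groups. Cxcl1, Cxcl2, Cxcl3 and Cxcl5 had knockdown minus wild type differences of -0.32 (SE 0.19), -0.48 (SE 0.23), -0.28 (SE 0.27) and -0.08 (SE 0.14). In the knockout the corresponding values were -0.20, -0.30, -0.00 and 0.01. Cxcl2, the brightest of these probe sets, averaged 7.29 ± 0.25 in the knockdown, 7.47 ± 0.26 in the knockout and 7.77 ± 0.43 in the wild type (SD, n = 3 each), and wild type 2 alone lay above 8.

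The second comparison asked how the knockout differs from wild type. Here the members did not lean one way, and Cxcl9, an attractant of activated T cells, stood furthest above wild type, at a 1.76-fold higher level. Again 0 of 52 members passed in limma at an adjusted p under 0.05, where 0.0459% of all genes did. At an unadjusted p under 0.05 there were 4 members (3.34% of all genes): Ccl22 and Ccl7 were lower (1.59% of all genes), and Ccrl2 and Cxcl9 higher (1.75%). The knockout mean lay below the wild type mean for 27 of 52 members, against 48.1% of all genes, and the median difference was -0.03, against 0.01 over all genes. Ccl7 and Ccr3 lay below wild type without overlap (2.29% of all genes), and Ccrl2, Cxcl9 and Cxcr6 lay above (2.54% of all genes). Without wild type 1 and knockout 7, a lower mean was found for 31 members (50.4% of all genes), and an unadjusted p under 0.05 for 5 lower members (4.02% of all genes) and 3 higher ones (3.67% of all genes). The knockout arrays then lay below wild type without overlap for 9 members (15.8% of all genes) and above it for 10 (15.3% of all genes). For 45 of 52 members (86.5%) the 95% interval stayed within 2-fold either way, against 97.0% of all genes.

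The CXCR3 ligands CXCL9, CXCL10 and CXCL11 are induced by interferons and attract activated T cells. Cxcl9 had 8.27, 7.90 and 8.14 in the knockdown, 8.30, 8.75 and 9.11 in the knockout and 7.63, 8.16 and 7.92 in the wild type. All knockout arrays lay above all arrays of both other groups, with knockout 7 just above knockdown 4. The knockout minus wild type difference was 0.82 (SE 0.21, limma adjusted p = 1.0, range 0.0653 to 1.0 over all alternatives). The knockdown minus knockout difference was -0.62 (SE 0.21, a 1.53-fold lower level) with a limma adjusted p of 0.716, and with array weights -0.72 and 0.0495, the alternatives giving 0.0495 to 1.0. Cxcl10 had 9.85, 9.54 and 9.47 in the knockdown, 9.41, 9.64 and 9.91 in the knockout and 9.03, 10.01 and 9.54 in the wild type, so the groups overlapped fully. Cxcl11 averaged 7.95 ± 0.14 in the knockdown, 8.21 ± 0.14 in the knockout and 7.82 ± 0.39 in the wild type, with a knockout minus wild type difference of 0.40 (SE 0.19, limma adjusted p = 1.0) that was 0.19 without wild type 1. Their receptor Cxcr3 averaged 3.26 ± 0.05 in the knockdown, 3.36 ± 0.10 in the knockout and 3.28 ± 0.31 in the wild type.

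The promoter windows of Cxcl9 and Cxcl10 are shown because these are neighbouring genes of the same receptor axis whose knockout minus wild type differences were unlike, at 0.82 (SE 0.21) and 0.12 (SE 0.24), a contrast that was not tested. They lie at chr5:92328030-92328329 and chr5:92348840-92349139, both on the minus strand of GRCm38.p6 and both from RefSeq, and capitals mark the same motifs.
Cxcl9: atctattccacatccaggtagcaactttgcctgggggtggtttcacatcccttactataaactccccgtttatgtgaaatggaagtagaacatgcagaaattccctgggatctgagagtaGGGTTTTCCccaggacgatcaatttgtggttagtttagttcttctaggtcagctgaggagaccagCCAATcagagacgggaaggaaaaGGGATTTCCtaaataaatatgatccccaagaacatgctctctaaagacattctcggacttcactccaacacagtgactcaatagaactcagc
Cxcl10: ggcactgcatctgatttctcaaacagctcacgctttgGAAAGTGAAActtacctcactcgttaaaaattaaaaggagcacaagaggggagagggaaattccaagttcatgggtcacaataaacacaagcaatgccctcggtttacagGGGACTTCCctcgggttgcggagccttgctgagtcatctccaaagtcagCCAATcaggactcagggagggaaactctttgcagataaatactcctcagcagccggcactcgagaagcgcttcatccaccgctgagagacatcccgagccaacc
The Cxcl9 window held GGGNNTTCC at positions -130 and -42 and CCAAT at -65. The Cxcl10 window held GGGNNTTCC at -103, CCAAT at -54 and, unlike that of Cxcl9, the interferon-stimulated element form at -213.

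**Figure D4:**
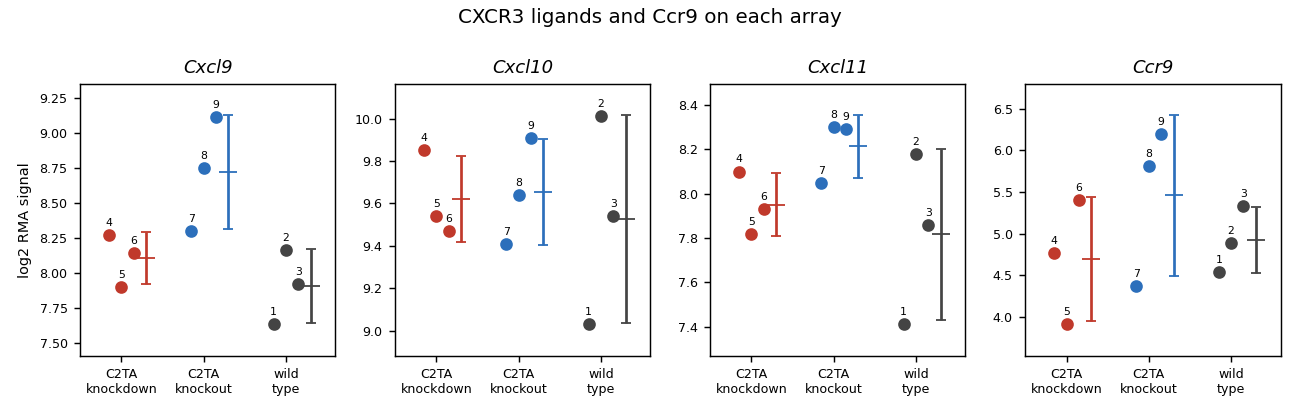
Log2 RMA signal of Cxcl9, Cxcl10, Cxcl11 and Ccr9 on each array, with points numbered by array and the group mean ± SD beside them (n = 3). The knockout points of Cxcl9 lie above all others, the groups of Cxcl10 overlap, and Ccr9 spans 3.91 to 5.40 in the knockdown and 4.37 to 6.20 in the knockout.

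Ccr9 and Cxcr4 are receptors known from thymocytes, and Ccr9 varied widely within groups. Ccr9, the CCL25 receptor of immature thymocytes, had 4.77, 3.91 and 5.40 in the knockdown, 4.37, 5.81 and 6.20 in the knockout and 4.54, 4.89 and 5.33 in the wild type. Its difference of -0.77 between knockdown and knockout had an SE of 0.49. Cxcr4, the CXCL12 receptor, had 6.71, 6.42 and 7.03 in the knockdown, 6.75, 7.29 and 7.28 in the knockout and 6.79, 6.66 and 6.86 in the wild type, with overlap between all groups. Thymocyte markers were spread in a similar order over the arrays: their mean deviation from the 9-array mean was highest on knockout 8 (0.82) and knockout 9 (0.49) and lowest on knockdown 5 (-0.34). Cxcl12, the CXCR4 ligand, was dim and overlapped between groups, at 3.02 ± 0.13 in the knockdown, 3.11 ± 0.03 in the knockout and 3.19 ± 0.17 in the wild type.

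The remaining members with known partners overlapped between knockdown and wild type except Ccr6. Ccr6, the CCL20 receptor, averaged 3.86 ± 0.10 in the knockdown, 3.92 ± 0.19 in the knockout and 4.11 ± 0.12 in the wild type (SD, n = 3 each), with a knockdown minus wild type difference of -0.24 (SE 0.13). Ccl20 itself had 7.13, 7.22 and 6.95 in the knockdown, 7.17, 7.40 and 7.41 in the knockout and 6.56, 7.78 and 7.40 in the wild type. Its wild type arrays alone spanned more than the other groups together. Xcl1, which depends on Aire in mouse medullary epithelium, had 3.67 on each knockdown array, and averaged 3.67 ± 0.13 in the knockout and 3.66 ± 0.08 in the wild type. This probe set was dim, with a mean of 3.67 beside a median of 4.52 over all genes, and its equal values understate the spread. Aire was higher in the knockdown, at 11.40 ± 0.13 in the knockdown, 9.77 ± 0.08 in the knockout and 9.85 ± 0.23 in the wild type, and passed against the wild type at 1.54 (limma adjusted p = 0.00362) and against the knockout at 1.62 (limma adjusted p = 0.00183). In the published background given above, the silencing transgene is under control of the Aire locus, and its part in this Aire signal was not tested. Xcr1, the XCL1 receptor of dendritic cells, averaged 3.95 ± 0.18 in the knockdown, 4.04 ± 0.18 in the knockout and 4.09 ± 0.12 in the wild type. The B cell attractant Cxcl13 averaged 6.30 ± 0.14 in the knockdown, 6.21 ± 0.49 in the knockout and 6.61 ± 0.75 in the wild type. Cxcl16, the CXCR6 ligand, had differences of -0.02 in the knockdown and 0.04 in the knockout from wild type (SE 0.18 each). The skin and mucosal chemokines Ccl27a and Ccl28, which act on CCR10, had knockdown minus wild type differences of -0.20 (SE 0.29) and 0.07 (SE 0.12), and Ccr10 had a knockdown minus knockout difference of 0.06 (SE 0.13).

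Members with a higher mean in the knockdown differed from wild type by at most 0.35. Cx3cl1, a membrane-bound chemokine, had 5.19, 5.0 and 4.88 in the knockdown, 4.68, 4.84 and 5.42 in the knockout and 4.46, 4.90 and 4.87 in the wild type, a difference of 0.28 (SE 0.20) from wild type. Cxcl17, a mucosal chemokine, had 5.51, 5.72 and 5.37 in the knockdown, 4.70, 5.05 and 5.44 in the knockout and 5.68, 4.89 and 5.24 in the wild type. Its difference was 0.26 (SE 0.23) from wild type and 0.47 (SE 0.23, limma adjusted p = 1.0) from the knockout, with overlap in both. Ackr4, which takes up CCR7 ligands without signalling, and Cxcl15 had knockdown minus knockout differences of 0.15 (SE 0.12) and 0.10 (SE 0.14), and the difference of Cxcl15 was -0.01 without knockout 9.

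The third comparison set the knockdown against the knockout. Ccl5 had the largest difference, a 1.84-fold lower level in the knockdown, and lower means prevailed: 38 of 52 members lay lower in the knockdown, against 49.7% of all genes. In limma 0 of 52 members passed at an adjusted p under 0.05 (0.0408% of all genes), and at an unadjusted p under 0.05 there were 7, all lower (2.22% of all genes lower and 5.04% in either direction). Among these were Ccl5, Ccl6, Ccr2, Ccr7, Cxcl9 and Pf4. For 12 members every knockdown array lay below every knockout array, an arrangement of 4.22% of all genes, and for 0 members did they lie above (5.38%). Among these were Ccl1, Ccl19, Ccl2, Ccl5, Ccl6, Ccr2, Ccr7, Ccrl2, Cxcl9, Cxcr6 and Pf4. The median difference was -0.12, against 0.0 over all genes, and inflammatory ligands (16 of 19 lower, median -0.18) and receptors (12 of 15 lower, median -0.17) lay further below 0 than homeostatic ligands (8 of 14 lower, median -0.04). Without wild type 1 and knockout 7 there were 38 members with a lower mean (49.0% of all genes), 15 with an unadjusted p under 0.05 and a lower mean (6.78% of all genes) and 22 that lay below without overlap (13.2% of all genes), while 0 lay above (11.2% of all genes). For 45 of 52 members (86.5%) the 95% interval stayed within 2-fold either way, against 97.1% of all genes.

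Pf4, the platelet chemokine also called CXCL4, had 3.99, 4.03 and 4.08 in the knockdown, 4.59, 4.37 and 4.21 in the knockout and 3.97, 4.30 and 4.21 in the wild type. Its knockdown minus knockout difference was -0.36 (SE 0.13, limma adjusted p = 0.777). Ccrl2, a receptor that binds chemerin without signalling, had 4.57, 4.40 and 4.69 in the knockdown, 4.82, 4.77 and 5.10 in the knockout and 4.23, 4.70 and 4.68 in the wild type. The knockout arrays of Ccrl2 lay above all others, by 0.36 over wild type (SE 0.16, limma adjusted p = 1.0), or 0.21 without wild type 1. Cxcr6, the CXCL16 receptor, showed the same arrangement at a dim signal, with 2.34 ± 0.09 in the knockdown, 2.54 ± 0.05 in the knockout and 2.37 ± 0.08 in the wild type. The comparisons share arrays, so the same group means enter more than one of them.

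Chemokine genes lie in clusters. Over all genes, 47.6% had a lower mean in the knockdown than in the wild type and 3.46% lay below without overlap. Of the members, 51 could be placed in the RefSeq gene order, where 30 of them fell into 7 runs of neighbours. In the run Ccl2, Ccl7, Ccl12, Ccl8 and Ccl1 on chromosome 11, 4 of 5 had a lower mean in the knockdown than in the wild type and 3 lay below without overlap. In the run Ccl5, Ccl6, Ccl3 and Ccl4 on the same chromosome, 4 of 4 had a lower mean and 2 lay below without overlap. The receptor run on chromosome 9, which holds Ccr9, Xcr1 and Ccr3 among others, had lower means for 8 of 8, with 1 below without overlap. The chromosome 5 run of Cxcl5, Pf4, Cxcl3, Cxcl15, Cxcl1 and Cxcl2 had lower means for 6 of 6, with 0 below without overlap. In the chromosome 8 run, Ccl22 lay below while Cx3cl1 and Ccl17 had differences of 0.28 and 0.35, with overlapping groups. The other chromosome 5 runs leaned less: Cxcl9 and Cxcl10 had lower means for 0 of 2, and Ccl26 and Ccl24 for 1 of 2. In both of these runs 0 lay below without overlap.

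Genes around the chemokine system gave few calls. Of 33 genes that signal below the receptors, such as G proteins, arrestins and the Rac activator Dock2, 0 passed in limma in any comparison. The counts at an unadjusted p under 0.05 were 3 for knockdown against wild type, 1 for knockout against wild type and 3 for knockdown against knockout. Over all genes these shares were 5.24%, 3.34% and 5.04%. The median differences of the 33 genes were 0.04, 0.07 and -0.06 in that order. Of 18 regulators of chemokine genes, such as NF-kappa B subunits and interferon receptors, only Aire passed, higher in the knockdown against both other groups, and the median differences were -0.02, 0.08 and -0.05. Of 7 further chemokine system genes that are neither ligands nor signalling receptors by the lists used and lie outside the naming rule, such as Ackr1 and Ackr2, 0 passed in limma, with unadjusted counts of 1, 0 and 0 and median differences of -0.11, 0.03 and -0.06.

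Markers of other cell types varied alongside these values. Several members, among them Ccr7, Ccl22, Ccl6 and Xcr1, are also expressed by dendritic cells, macrophages or T cells, and in a bulk sample fewer cells of a type and less RNA per cell cannot be told apart. Of 17 dendritic cell and macrophage markers, 14 had a lower mean in the knockdown than in the wild type (median -0.16), 14 had a higher mean in the knockout than in the wild type (median 0.11) and 14 had a lower mean in the knockdown than in the knockout (median -0.26). Over all genes, 47.6%, 48.1% and 49.7% had a lower mean in these comparisons. None of the 17 markers passed in limma (1, 0 and 4 at an unadjusted p under 0.05, where 5.24%, 3.34% and 5.04% of all genes did). Their summed signal ran from 893 to 961 in the knockdown, 982 to 1308 in the knockout and 1015 to 1214 in the wild type on the linear scale. Lyz2 and Fscn1, with mean log2 signals of 8.44 and 8.31, had the brightest probe sets of the list and weigh most in this sum. Itgax, which encodes CD11c, had 3.18, 3.18 and 3.03 in the knockdown, 3.80, 3.67 and 4.04 in the knockout and 3.77, 3.41 and 3.41 in the wild type. The knockdown arrays were lowest for the summed signal and for Itgax, though in the mean log2 deviation of the list knockout 7 (-0.10) lay below knockdown 6 (-0.09). For Itgam, Cd209a and Mertk the knockdown mean exceeded that of wild type, by 0.15, 0.14 and 0.06. The part of such cells in the values of Ccr7, Ccl5, Ccl6 and the other members was not tested.

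All 11 measured thymocyte markers had a higher mean in the knockout than in the wild type (48.1% of all genes had a lower one), with a median of 0.57. Of these markers, 5 had an unadjusted p under 0.05 (3.34% of all genes), though 0 passed in limma. In knockdown against knockout all 11 had a lower mean (49.7% of all genes), with a median of -0.56. There 6 had an unadjusted limma p under 0.05 (5.04% of all genes), and 0 passed. In knockdown against wild type 8 were lower (47.6% of all genes), with a median of -0.04 and 0 at an unadjusted limma p under 0.05 (5.24% of all genes). The summed signal of the thymocyte markers ran from 323 to 411 in the knockdown, 366 to 801 in the knockout and 344 to 413 in the wild type, with the higher values on knockout 8 and knockout 9. Cxcl9 and Ccr9 were also highest on these arrays, and the part of thymocytes in their values was not tested. The mature medullary epithelial markers had a median difference of -0.08 from wild type in each C2TA group, with Aire as the only one of 12 that passed. At an unadjusted p under 0.05 in limma there were 4 in the knockdown (5.24% of all genes) and 0 in the knockout (3.34% of all genes). Those in the knockdown were Aire and Krt5 (0.58), which were higher, and Tnfrsf11b (-0.57) and Cldn3 (-0.31), which were lower. The medians in the knockdown against wild type were -0.23 for 6 cortical epithelial markers, -0.01 for 7 B cell markers and -0.07 for 10 fibroblast and vessel markers. Those in the knockout against wild type were -0.06, 0.0 and 0.09. Of the cortical, B cell, and fibroblast and vessel markers, 0 were called in limma. In knockdown against wild type, an unadjusted limma p under 0.05 was found for 2 of 6 cortical markers (5.24% of all genes). These were Tbata (-0.51) and Dll4 (-0.37), both lower without overlap (3.46% of all genes). The cortical counts were 1 in knockout against wild type (Tbata, -0.50, 3.34% of all genes) and 2 in knockdown against knockout (5.04%). In that order of comparisons the 10 fibroblast and vessel markers gave 1, 0 and 2, and the 7 B cell markers 0 in each.

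**Figure D5:**
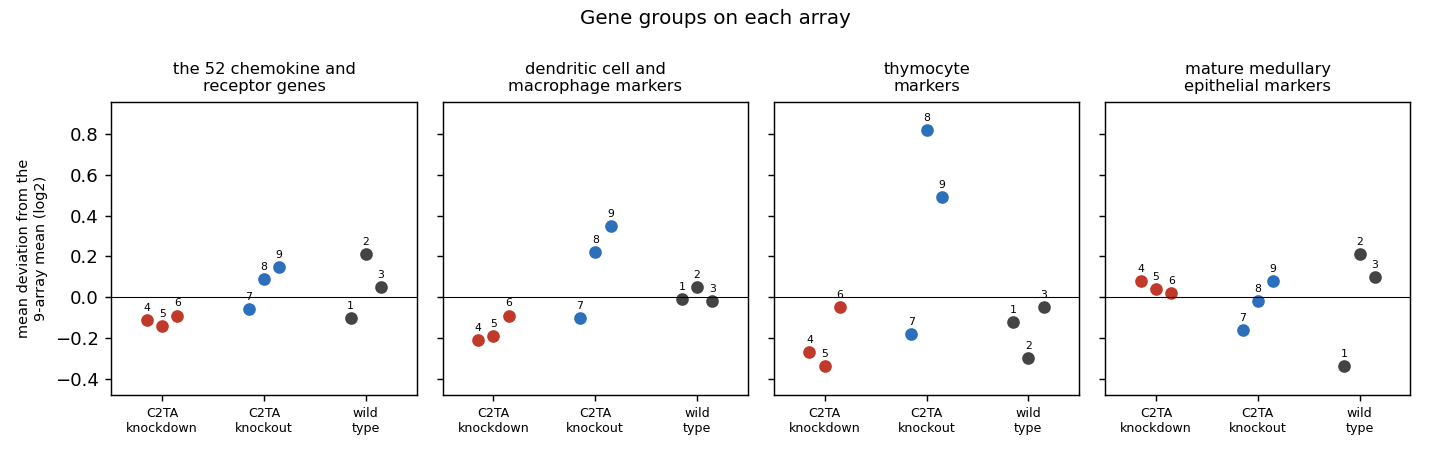
Mean deviation from the 9-array mean (log2) of the 52 chemokine and receptor genes, 17 dendritic cell and macrophage markers, 11 thymocyte markers and 12 mature medullary epithelial markers on each array, with points numbered by array. The 3 knockdown arrays lie between -0.14 and -0.09 for the chemokine genes and between -0.21 and -0.09 for the dendritic cell and macrophage markers, ranges that also hold wild type 1 (-0.10) for the chemokine genes and knockout 7 (-0.10) for those markers. Thymocyte markers reach 0.82 on knockout 8.

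The authors' deposited table gives a q-value per probe set without naming the groups it compares. In the authors' deposited table the lowest q-values among the members were 35.3% for Ccl6, 36.5% for Ccl22 and 55.6% for Cxcl9, and 0 members lay under 5%.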

How the data were processed

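RNA from 9 samples was hybridised to arrays. The log2 values were made by the authors with RMA, per the submitters' processing notes, which subtracts background, equalises arrays and combines probes by median polish. The deposited linear intensity values are the same data, with log2 values that differ from those used by at most 7.2e-10, and entered no test. The authors' deposited table holds a q-value in percent, a score that reaches 114.0 and whose groups are not stated. The software version, with genome build and annotation release, is not given in the sources used here.

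Symbols were updated through the RefSeq gene table of GRCm38.p6: 15192 probe sets matched by accession, 3746 by symbol and 1262 by an older name. A further 1336 kept the symbol of the annotation and 14016 had none. Of the members, 6 were renamed. The probe set with the highest mean was kept for each of 19593 genes, with no filter on dim genes. All 9 arrays entered a single limma model (version 3.58.1, R version 4.3.3, functions lmFit and eBayes, 6 residual degrees of freedom), with two-sided p-values adjusted by Benjamini-Hochberg over all genes and a threshold of 0.05. With 3 arrays against 3, the smallest p of an exact permutation test is 0.1. The number of arrays limits the precision. The fit was tested on simulated data.

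Genes are named where they passed, where they were among the 5 smallest p-values per direction in a comparison, where they were among the 12 brightest probe sets, or where they belong to a ligand and receptor axis, and the others are given by counts. Some genes are not reported here by name, though the counts include them. The members, the gene lists and the tests were chosen with earlier results of these data known. Alternatives were a repeated quantile normalization, median centring, a filter on dim genes, an intensity trend, weighted arrays (array weights), a model of the compared groups alone, all or averaged probe sets of a gene, and omission of each array in turn. Leaving out wild type 1 and knockout 7 together was chosen after seeing the data.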

Additional observations from a re-analysis of the deposited data

How the results depend on the processing

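Across 18 alternatives, 542 of 559 values of named genes kept their direction and their side of the threshold, 14 passed the threshold only under the alternative, and 3 reversed. Members called under an alternative but not named by the rule, such as Ccl1 and Ccl5 in knockdown against wild type, were added after their values had been seen. Part of the 14 follows from that choice. The reversals were Ccl17 in knockdown against wild type, at -0.08 both without wild type 1 and without wild type 1 and knockout 7 (-0.08 to 0.67 over the arrays left out in turn), and Cxcl15 in knockdown against knockout, at -0.01 without knockout 9 (-0.01 to 0.15). The number of members called in knockdown against wild type was 5 with array weights (Ccl1, Ccl22, Ccl5, Ccl6 and Ccr7), 2 without wild type 1 and knockout 7 (Ccl22 and Ccl5, of 51 genes called in all), 1 after repeated quantile normalization (Ccl22, of 48) and 1 without wild type 1 (Ccl5, of 48), and ran from 0 to 1 over the arrays left out in turn. In knockdown against knockout it was 4 with array weights (Ccl5, Ccl6 and Cxcl9 among them) and 1 without wild type 1 and knockout 7 (Ccl5, of 66 genes called in all), and 0 with any single array left out. In knockout against wild type it was 0 under all alternatives. Array weights gave wild type 1 a weight of 0.143 and knockout 7 a weight of 0.355, and with them 247 genes were called in all in knockdown against wild type and 254 in knockdown against knockout, against 13 and 8 without weights. Among members with a mean of at least 5, the median difference was -0.20 in knockdown against wild type and -0.23 in knockdown against knockout. All genes with a mean of at least 5 had medians of 0.07 and 0.01, and members under 5 had -0.09 and -0.07. With single arrays left out, the median over all 52 members ran from -0.17 to -0.08 in knockdown against wild type. It ran from -0.07 to 0.06 in knockout against wild type and from -0.18 to -0.10 in knockdown against knockout. The 0.06 came without wild type 2. Leaving out 1 array also moved differences of uncalled genes by over 1.5 times, among them Ccl22 in the knockout (-0.50 without wild type 2), Ccl2 in the knockout (-0.15 without wild type 2), Ccr3 in the knockout (-0.17 without wild type 1), Ccl12 in knockdown against knockout (0.05 without knockdown 4), and Cx3cl1 (0.13 without wild type 1), Cxcl17 (0.07 without wild type 2) and Cxcl9 (0.06 without wild type 1) in knockdown against wild type. The cause was not tested. The median standard error of a difference was 0.18 over the members, which 3 arrays a group set, and 31 of 52 members lay under a mean of 5. No paired analysis was possible because the groups share no replicate numbers, which run from 1 to 9 over the groups.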
